A study of Mus musculus with 4 samples.

Results

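TRP channels are cation channels of the cell membrane, and 9 of their genes, known from sensory neurons or glia, are described here: Trpv1, Trpv2, Trpv4, Trpa1, Trpm2, Trpm3, Trpm7, Trpm8 and Trpc5. They were chosen by name from gene tables of 21883 features, and all 9 had a row in both tables. The tables come from 4 RNA libraries, 1 per group: ipsilateral and contralateral lumbar dorsal root ganglia (DRG, L4-6, which hold the cell bodies of sensory neurons), and the ipsilateral and contralateral dorsal lumbar spinal cord, to which those neurons project. All 4 libraries come from wild-type young adult male mice of the strain BL6/C57 whose sciatic and femoral nerves had been cut on the left side 7 days earlier. The contralateral side is therefore tissue of operated mice and not of uninjured ones, and the number of mice behind a library is not stated in the labels. The question is which transcripts differ on the side of the cut, in the ganglia and in the cord segment they project to.

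TRP channels open on heat, cold, irritant chemicals, osmotic or oxidative stress, and let calcium and sodium into the cell. In sensory neurons TRPV1 answers to noxious heat and capsaicin, TRPA1 to mustard oil and other irritants, and TRPM8 to cooling and menthol. TRPM3 is a heat-activated channel also opened by pregnenolone sulfate, and TRPV2 is found in large sensory neurons and in macrophages. TRPM2 opens on ADP-ribose made under oxidative stress, TRPV4 on cell swelling, and TRPC5 is a receptor-operated channel of neurons. TRPM7 joins a channel for divalent cations to a kinase and is expressed very widely.

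The levels are the authors' deposited FPKM (fragments per kilobase and scaled to the library), which divide by transcript length and so allow genes to be compared within a library. The log2 ratio is that of (ipsilateral + 1) over (contralateral + 1) FPKM, and the 1 FPKM added makes the ratios of low genes smaller. A gene is called measured where at least 1 library of the tissue reached 1 FPKM, and 2-fold higher or lower where its log2 ratio reached 1 or -1. With 1 library per group there is no replicate error and no test. Each plain fold (FPKM over FPKM) has a 95% interval, computed from the fold change and the test statistic in the authors' deposited table, which leaves out the variation between mice. Summed FPKM lay between 425636 and 442298 over the 4 libraries, the read depth is not given, and the median log2 ratio of measured features was 0.05 in DRG and 0.02 in cord. All 8 sensory neuron genes of the marker list that have a row (8 of 9 symbols) were measured in DRG, where 1 of 8 dorsal horn genes was (Slc17a6, which sensory neurons also express), and 8 of 8 dorsal horn genes and 8 of 8 astrocyte genes were measured in cord. The counts do not separate the tissues for every list: 8 of 8 astrocyte genes were also measured in DRG, and 5 of the 8 sensory neuron genes in cord.

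The 250 bases before the annotated start are printed for 3 of the genes that were lower in ipsilateral DRG (Trpm8, Trpv1 and Trpm2) and, for contrast, for Trpm7, whose level was nearly the same on both sides. The sequences are RefSeq's for the build GRCm38.p6, 5′ to 3′ on the strand of the gene, and capitals mark matches to the motifs searched.
Trpm8, chr1:88306485-88306734, + strand: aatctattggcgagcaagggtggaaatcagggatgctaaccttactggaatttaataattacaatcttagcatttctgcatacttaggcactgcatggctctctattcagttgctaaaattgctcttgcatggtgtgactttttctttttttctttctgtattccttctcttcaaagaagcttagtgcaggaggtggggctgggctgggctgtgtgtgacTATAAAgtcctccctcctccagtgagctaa
Trpv1, chr11:73233899-73234148, + strand: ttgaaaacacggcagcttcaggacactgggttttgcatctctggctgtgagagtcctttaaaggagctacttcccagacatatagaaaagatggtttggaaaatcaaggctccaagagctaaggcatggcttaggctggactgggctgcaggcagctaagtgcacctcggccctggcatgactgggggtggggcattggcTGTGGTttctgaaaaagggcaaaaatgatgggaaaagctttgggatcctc
Trpm2, chr10:77969873-77970122, - strand: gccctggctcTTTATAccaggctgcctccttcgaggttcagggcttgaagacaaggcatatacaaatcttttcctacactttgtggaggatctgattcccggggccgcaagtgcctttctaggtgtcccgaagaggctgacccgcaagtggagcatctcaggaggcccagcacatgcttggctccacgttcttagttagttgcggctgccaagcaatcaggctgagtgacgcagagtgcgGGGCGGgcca
Trpm7, chr2:126876262-126876511, - strand: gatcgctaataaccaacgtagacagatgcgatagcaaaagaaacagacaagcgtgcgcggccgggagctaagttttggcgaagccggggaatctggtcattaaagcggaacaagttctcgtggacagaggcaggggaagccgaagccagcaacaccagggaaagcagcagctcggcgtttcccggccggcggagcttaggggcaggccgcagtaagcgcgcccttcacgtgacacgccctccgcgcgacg

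The motifs searched on both strands were the AP-1 site TGANTCA, the CRE TGACGTCA, the Runx core TGTGGT, the GC box GGGCGG and the TATA box TATAAA, and no match of one overlaps that of another. AP-1 and CRE are the sites of Jun and ATF family factors, and Runx1 is a transcription factor of nociceptors. The Trpm8 window has a TATAAA that begins 30 bases before the start, and 12.4% of 32851 promoter windows of the same length hold these letters. The Trpv1 window has TGTGGT 50 bases before the start, found in 14.0% of all windows. This core was not particular to the genes that were lower. A Trpm3 window holds it on the other strand, 166 bases before the start. The Trpm2 window has GGGCGG 10 bases before the start, as 32.7% of windows do somewhere, and TATAAA on the other strand 240 bases before it. GGGCGG also occurs in the Trpv4 window, 30 and 16 bases before the start. Neither TGANTCA (6.75% of windows) nor TGACGTCA (1.55%) occurs in any of the 11 windows of the 8 genes with an entry, which says only that these letters are not in these windows. Trpa1 has no entry.

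The windows differed in their CpG content. Trpm8 had 1 CpG and Trpv1 had 2, where the median of all windows was 6. Trpm2 had 10 CpGs and Trpm7 had 26, more than 90.4% of windows. Low CpG content was not particular to the genes that were lower: of the 3 Trpv2 windows, 2 also had 2 CpGs each. GC content was 42.8% for Trpm8, 50.8% for Trpv1, 56.8% for Trpm2 and 60.4% for Trpm7, against a median of 52.4%.

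In ipsilateral DRG Trpm8, Trpv1, Trpa1 and Trpm2 were lower than contralaterally, whereas Trpv2, Trpm3 and Trpm7 stood close to their contralateral levels. Trpm8 had the lowest ratio, though these libraries do not separate it from the ratios of Trpv1, Trpa1 and Trpm2. Of the 9 genes 7 were measured in DRG, and 5 of these had a log2 ratio below 0, as 43.9% of all measured features did. 1 of the 7, Trpm8, was at least 2-fold lower, against 0.784% of all measured features, and 0 were 2-fold higher, against 3.04%. At a smaller difference, a log2 ratio of -0.5 or less, 4 of the 7 were lower (Trpm8, Trpv1, Trpa1 and Trpm2), against 6.89% of all measured features. The interval of the plain fold lay below 1 for the same 4 genes, as for 6.28% of measured features, and above 1 for 0 of the 7, as for 9.97%. The median log2 ratio of the 7 genes was -0.57, beside 0.05 over all measured features. In whole ganglia fewer cells of a type and less RNA per cell cannot be told apart.

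**Figure D1:**
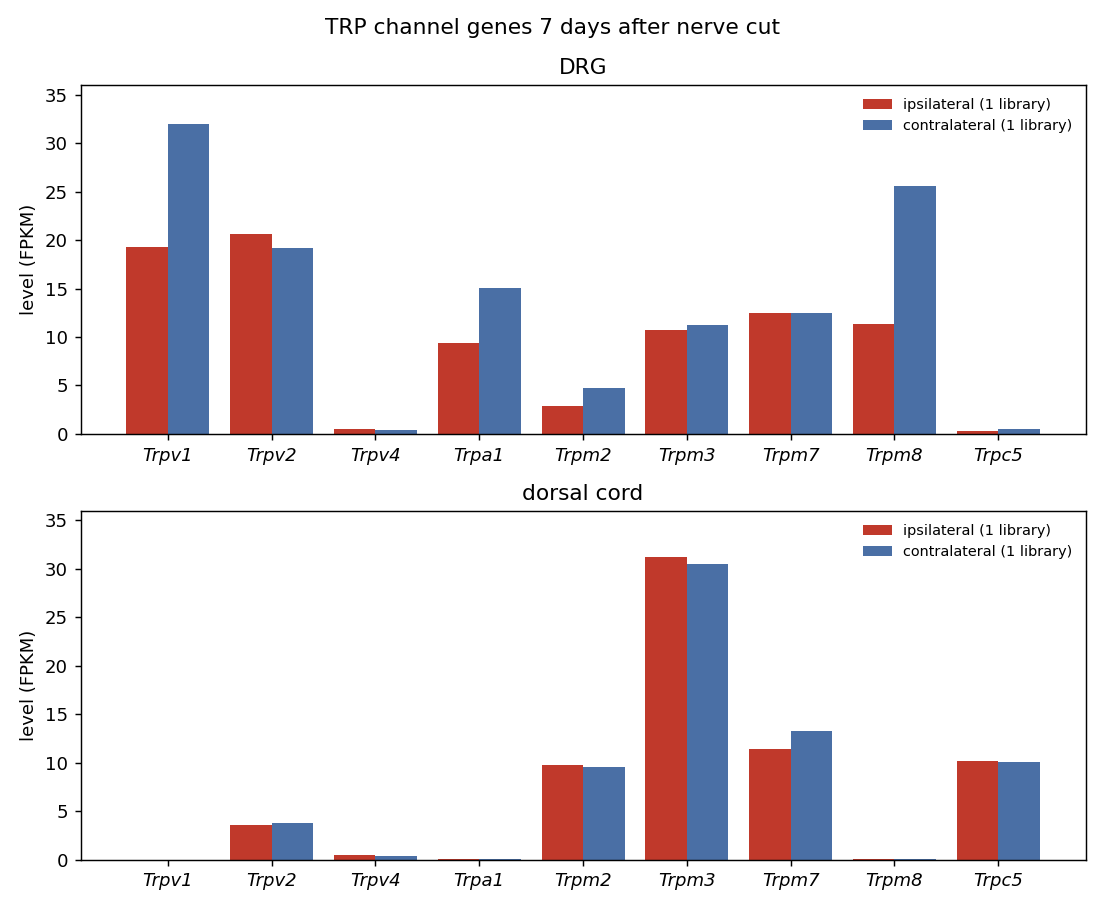
FPKM of each gene (vertical axis) in the ipsilateral library (red, left bar) and the contralateral library (blue, right bar) of DRG (top) and dorsal cord (bottom), 1 library per bar and so no error bars. Trpm8 stands at 11.3 against 25.6 FPKM in DRG, and the cord bars are close in pairs, with Trpm3 highest at 31.2 against 30.5 FPKM.

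Trpm8, the gene of the cold and menthol channel, was at 11.3 FPKM in ipsilateral DRG and 25.6 FPKM in contralateral DRG. This is 55.9% less ipsilaterally, a plain fold of 0.441 with an interval of 0.308 to 0.633, and a log2 ratio of -1.11. Only 0.533% of measured features had a log2 ratio as low or lower. It was the 1 gene of the 9 that the authors' deposited table calls significant in DRG (q = 0.000489), where the authors' deposited table calls 1.9% of tested features lower ipsilaterally and 4.64% higher. The authors' deposited table places Trpm8 on mm9 chromosome 1, 90203286 to 90285426.

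Trpv1, the gene of the capsaicin receptor, was at 19.3 FPKM ipsilaterally and 32.0 FPKM contralaterally in DRG. The plain fold was 0.603 (interval 0.420 to 0.866) and the log2 ratio -0.70. Of all measured features 2.97% had a ratio as low. The authors' deposited table does not call it (q = 0.0780). The authors' deposited table places Trpv1 on mm9 chromosome 11, 73051760 to 73074009.

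Trpa1, the gene of the irritant receptor found in a subset of TRPV1 neurons, was at 9.36 FPKM in ipsilateral DRG and 15.1 FPKM in contralateral DRG. The plain fold was 0.620 (interval 0.429 to 0.895), the log2 ratio -0.64, and the authors' deposited table does not call it (q = 0.115). Trpa1 stood at 0.485 of the Trpv1 level ipsilaterally and at 0.472 contralaterally, and no interval was computed for this proportion. Trpm8 stood at 0.586 of the Trpv1 level ipsilaterally and at 0.801 contralaterally. The plain log2 fold of Trpm8 was 0.45 below that of Trpv1 (-0.45, interval -1.19 to 0.28), so these libraries do not separate the 2 differences. The same held for Trpm8 beside Trpa1 (-0.49, interval -1.23 to 0.25) and beside Trpm2 (-0.46, interval -1.24 to 0.32). Trpa1 lies on mm9 chromosome 1 from 14862728 to 14908943 in the authors' deposited table.

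Trpm2, the gene of the channel gated by ADP-ribose, was at 2.85 FPKM in ipsilateral DRG and 4.69 FPKM in contralateral DRG. The plain fold was 0.607 (interval 0.407 to 0.905), the log2 ratio -0.57, and the authors' deposited table does not call it (q = 0.138). Trpm2 is known from macrophages and microglia as well as neurons. The myeloid genes went the other way: all 10 of the listed genes were higher in ipsilateral DRG, with a median log2 ratio of 1.15. Of the 10, 7 were at least 2-fold higher, against 3.04% of measured features, and the summed level was 150.6 against 57.8 FPKM. The 8 listed astrocyte genes went both ways in DRG, with a median log2 ratio of 0.00 and a summed level of 84.0 against 114 FPKM. The authors' deposited table calls 3 of them lower ipsilaterally, Slc1a2 at 2.34 against 7.98 FPKM, Aqp4 at 2.04 against 5.10 FPKM and Aldoc at 39.9 against 69.6 FPKM, and 1 higher, Aldh1l1 at 11.5 against 5.22 FPKM. Of the 6 oligodendrocyte genes the 3 under 1 FPKM on both sides were lower ipsilaterally, Mobp at 0.0376 against 0.998 FPKM, Mog at 0.0324 against 0.711 FPKM and Opalin listed at 0 against 0.887 FPKM. Of these the authors' deposited table calls Mobp lower, where it calls 1.9% of all tested features lower and 4.64% higher. The part of either group in the Trpm2 value was not tested. Trpm2 lies on mm9 chromosome 10 from 77370466 to 77432617 in the authors' deposited table.

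Trpv2, Trpm3 and Trpm7 were at similar levels on both sides of DRG. Trpv2 was at 20.6 FPKM ipsilaterally and 19.2 FPKM contralaterally, a plain fold of 1.08 with an interval of 0.745 to 1.55. Trpm3 was at 10.7 against 11.2 FPKM, and its fold of 0.954 had the narrowest interval of the 7 measured genes, 0.770 to 1.18. Trpm7 was at 12.5 FPKM on both sides, with a fold of 1.0 and an interval of 0.736 to 1.37. These intervals leave out a 2-fold difference in either direction for each of the 3 genes, but not a smaller one. The plain log2 fold of Trpm8 lay below those of Trpv2 (by -1.28, interval -2.03 to -0.54), Trpm3 (by -1.11, interval -1.72 to -0.51) and Trpm7 (by -1.18, interval -1.87 to -0.50). In the authors' deposited table Trpv2 lies on mm9 chromosome 11 from 62387987 to 62413807, Trpm3 on chromosome 19 from 22213606 to 23064374 and Trpm7 on chromosome 2 from 126617293 to 126701997.

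Trpv4 and Trpc5 stayed under 1 FPKM in both DRG libraries. Trpv4 was at 0.532 FPKM ipsilaterally and 0.454 FPKM contralaterally, with a fold interval of 0.518 to 2.65. Trpc5 was at 0.308 against 0.463 FPKM, with a fold interval of 0.297 to 1.49. Such wide intervals allow a 2-fold difference in at least 1 direction for each gene. In the authors' deposited table Trpv4 lies on mm9 chromosome 5 from 115072162 to 115108430 and Trpc5 on chromosome X from 140816213 to 141122723.

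**Figure D2:**
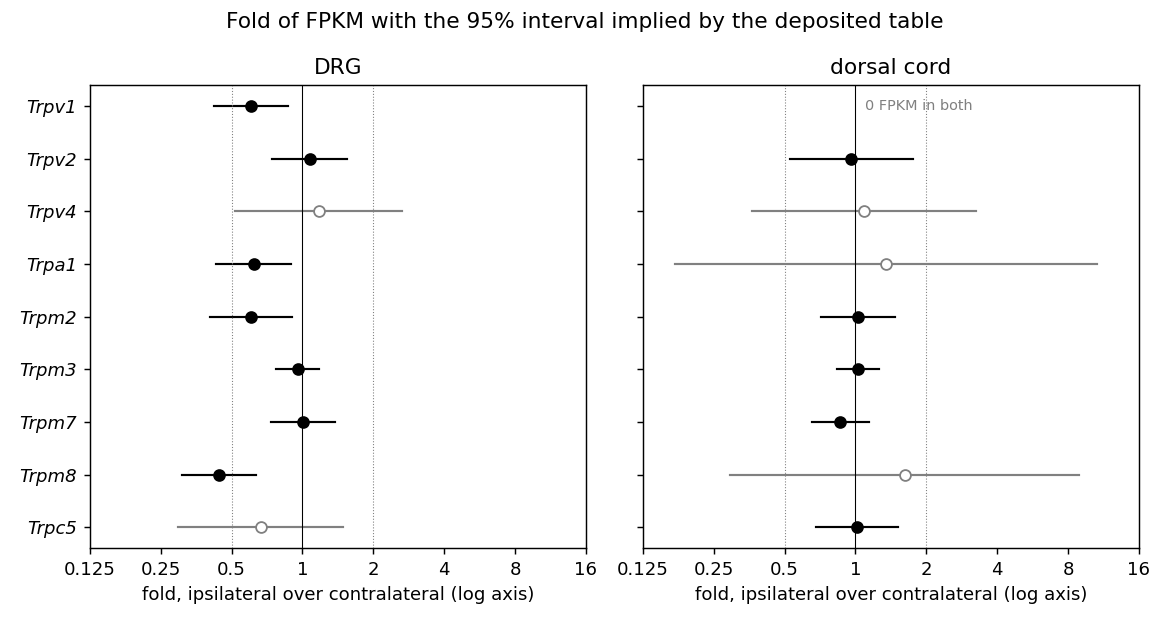
Plain fold of FPKM, ipsilateral over contralateral (log axis), for each gene in DRG (left) and dorsal cord (right), with the 95% interval implied by the authors' deposited table; open grey points are genes under 1 FPKM in both libraries, and dotted lines mark folds of 0.5 and 2. In DRG the intervals of Trpm8, Trpv1, Trpa1 and Trpm2 lie below 1, and in cord every interval drawn holds 1.

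The order of the genes differed between the 2 DRG libraries. Ipsilaterally Trpv2 came first at 20.6 FPKM, followed by Trpv1 at 19.3, Trpm7 at 12.5, Trpm8 at 11.3, Trpm3 at 10.7 and Trpa1 at 9.36 FPKM. Contralaterally Trpv1 was highest at 32.0 FPKM, followed by Trpm8 at 25.6, Trpv2 at 19.2, Trpa1 at 15.1, Trpm7 at 12.5 and Trpm3 at 11.2 FPKM. Trpm8 made up 12.9% of the summed level of the 9 genes ipsilaterally and 21.1% contralaterally, and Trpv2 made up 23.6% and 15.8%. That sum was 87.5 FPKM ipsilaterally and 121 FPKM contralaterally. A single library gives no spread for a level, so neighbours in either order cannot be told apart beyond these values. Among all measured features, 53.0% lay below the Trpm8 level ipsilaterally and 75.1% contralaterally.

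In dorsal cord the measured genes stood close to equal between the sides. Of the 9 genes 5 were measured there, and 0 were 2-fold higher or lower, where 4.46% of all measured features were 2-fold higher and 1.64% lower. Of the 5, 2 had a log2 ratio below 0, as 48.4% of measured features did, and the ratios ran from -0.20 to 0.03, with a median of 0.02, beside 0.02 over all measured features. The fold's interval held 1 for each of the 5, where it lay above 1 for 12.3% and below 1 for 7.88% of measured features. The authors' deposited table calls 0 of the 9 in cord, where the authors' deposited table calls 4.52% of tested features higher ipsilaterally and 1.55% lower.

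Trpm3 was the highest of the 9 in cord, at 31.2 FPKM ipsilaterally and 30.5 FPKM contralaterally, a fold of 1.02 with an interval of 0.833 to 1.26. Trpm7 was at 11.4 against 13.3 FPKM, with a fold of 0.862 (interval 0.654 to 1.14). Trpc5 was at 10.2 against 10.0 FPKM, with a fold of 1.01 (interval 0.680 to 1.51). Of these 3 cord intervals none reaches a 2-fold difference. Trpv2 was at 3.63 against 3.77 FPKM, with a wider interval of 0.526 to 1.75.

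Trpm2 was at 9.77 FPKM in ipsilateral cord and 9.55 FPKM in contralateral cord, a fold of 1.02 with an interval of 0.714 to 1.47. The 10 myeloid genes of the same libraries were all higher ipsilaterally, with a median log2 ratio of 2.08 and a summed level of 429 against 86.4 FPKM. At least 2-fold higher were 9 of them, against 4.46% of measured features. Trpv2, known from macrophages, likewise stood at a log2 ratio of -0.05 in cord and 0.10 in DRG beside these higher myeloid genes. Which cells of either tissue hold the Trpm2 and Trpv2 transcripts was not measured.

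Channel genes typical of sensory neurons were at or near 0 in cord. Trpv1 was listed at 0 in both cord libraries. Trpa1 was at 0.0404 FPKM ipsilaterally and 0.0300 FPKM contralaterally, and Trpm8 at 0.0901 against 0.0557 FPKM. Their fold intervals, 0.171 to 10.6 for Trpa1 and 0.292 to 8.94 for Trpm8, leave the direction unknown. Trpv4, a channel known from astrocytes, was at 0.452 FPKM ipsilaterally and 0.416 FPKM contralaterally, with an interval of 0.362 to 3.26. The 8 astrocyte genes of the cord libraries had a median log2 ratio of 0.08, with 3 below 0. They ran from -0.23 to 0.91, the highest being Gfap at 881 against 469 FPKM, not called in the authors' deposited table.

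**Figure D3:**
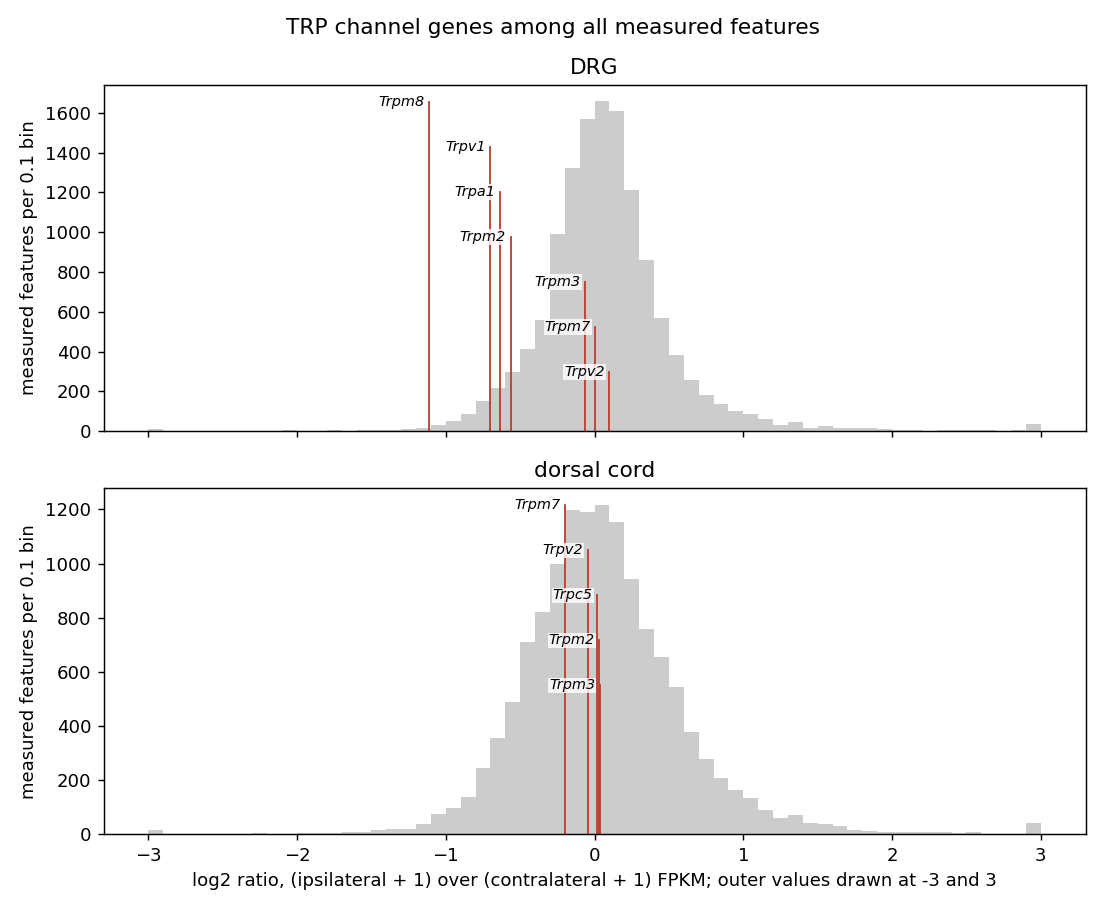
Number of measured features in each 0.1 bin of the log2 ratio, (ipsilateral + 1) over (contralateral + 1) FPKM, in DRG (top, 13137 features) and dorsal cord (bottom, 13351 features), with red lines at the measured TRP genes; line heights only separate the names. In DRG Trpm8 lies at -1.11, Trpv1 at -0.70, Trpa1 at -0.64 and Trpm2 at -0.57, and in cord all 5 genes lie between -0.20 and 0.03.

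Set beside each other on the contralateral side, DRG and cord held different TRP genes, with levels that are approximate across tissues because the 2 tables were normalised separately. Trpv1 was at 32.0 FPKM in DRG and listed at 0 in cord, Trpm8 at 25.6 against 0.0557 FPKM, and Trpa1 at 15.1 against 0.0300 FPKM. Trpv2 was 5.08-fold higher in DRG, at 19.2 FPKM against 3.77 FPKM in cord. Trpm3, Trpm2 and Trpc5 were lower in DRG: Trpm3 at 11.2 FPKM in DRG against 30.5 FPKM in cord, Trpm2 at 4.69 against 9.55 FPKM, and Trpc5 at 0.463 against 10.0 FPKM. Trpm7 was at 12.5 FPKM in DRG and 13.3 FPKM in cord, and Trpv4 at 0.454 against 0.416 FPKM.

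The 4 genes measured in both tissues allow the side difference to be compared between tissues. For Trpm2 the plain log2 fold was -0.72 in DRG and 0.03 in cord, a difference of -0.75 with an interval of -1.53 to 0.02. For Trpm3 the difference, DRG minus cord, was -0.10 (interval -0.53 to 0.33), for Trpm7 0.22 (-0.38 to 0.82) and for Trpv2 0.16 (-0.85 to 1.18). All 4 intervals hold 0, and none of these differences was tested against variation between mice.

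Of the other 19 TRP genes 9 were measured in DRG, with a median log2 ratio of -0.10. Of these 1 was at least 2-fold higher, against 3.04% of all measured features, and 0 were 2-fold lower, against 0.784%. The authors' deposited table calls 0 of the 9, where it calls 4.64% of tested features higher and 1.9% lower. Mcoln2, a lysosomal channel gene, was at 1.47 FPKM in ipsilateral DRG and 0.0333 FPKM in contralateral DRG, a log2 ratio of 1.26 that rests on a level near 0 (fold interval 2.74 to 710), and the authors' deposited table does not call it (q = 0.0904). Pkd2, the polycystin-2 channel gene, was at 12.1 against 7.76 FPKM (log2 ratio 0.59). Trpc6, a diacylglycerol-gated channel, was at 3.91 against 5.07 FPKM (-0.31) and Trpc1 at 7.24 against 7.82 FPKM (-0.10). Mcoln1, the lysosomal channel mucolipin-1, was at 30.1 against 33.7 FPKM (-0.16), and the calcium-activated channel gene Trpm4 at 3.25 against 3.47 FPKM (-0.08). Trpc2, a pheromone-sensing channel gene, was at 0.704 against 1.02 FPKM (-0.25) and Pkd2l2 at 4.16 against 3.16 FPKM (0.31).

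In cord 8 of the other 19 TRP genes were measured, with a median log2 ratio of -0.09. Past 2-fold were 0, where 4.46% of measured features were 2-fold higher and 1.64% lower. Mcoln1 was at 16.6 FPKM ipsilaterally and 30.8 FPKM contralaterally, a fold of 0.539 with an interval of 0.359 to 0.809. It was the 1 TRP gene of the family that the authors' deposited table calls in cord (q = 0.0484). There 1.55% of tested features are called lower and 4.52% higher. Pkd2l1, a channel of neurons that contact the cerebrospinal fluid, was at 2.88 against 5.34 FPKM (log2 ratio -0.71) and Pkd2l2 at 1.23 against 2.97 FPKM (-0.84), neither called in the authors' deposited table. Trpc1 was at 6.21 against 4.72 FPKM (0.33), Trpc2 at 2.20 against 1.85 FPKM (0.17), Trpc7 at 1.67 against 1.36 FPKM (0.18) and Pkd2 at 11.2 against 10.5 FPKM (0.08).

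**Figure D4:**
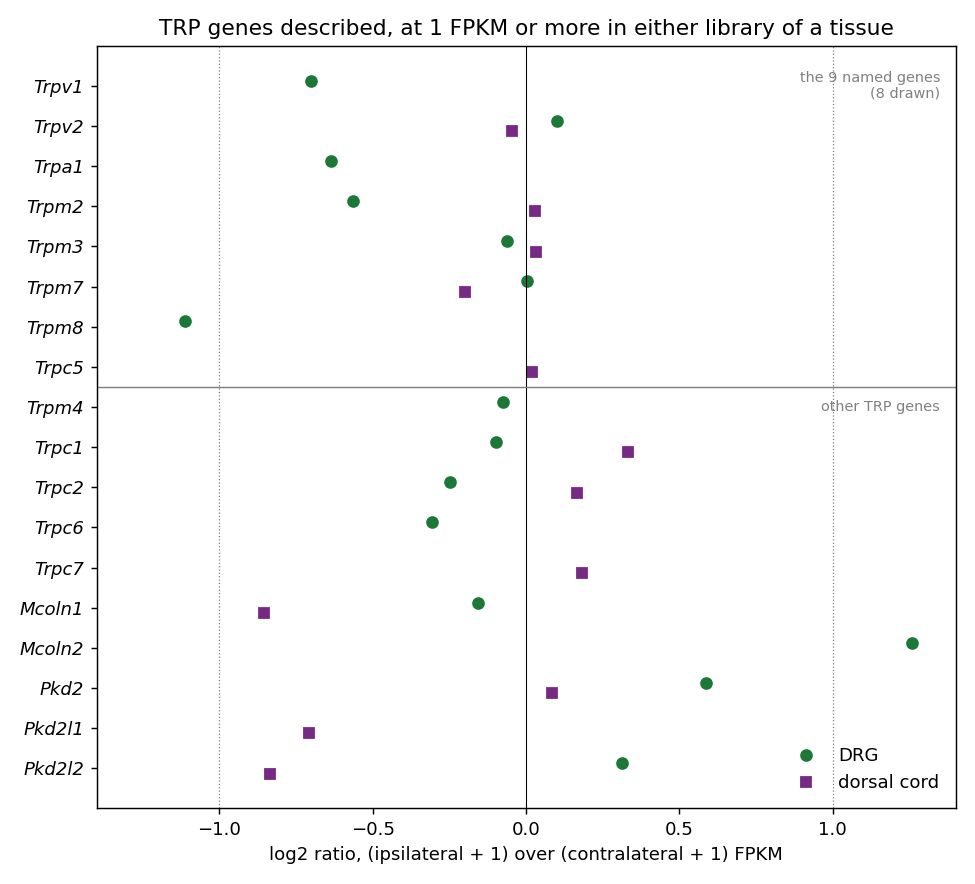
Log2 ratio, (ipsilateral + 1) over (contralateral + 1) FPKM, of the TRP genes described that were measured in DRG (green circles) or dorsal cord (purple squares), with 8 of the 9 named genes above the line and the other TRP genes below it; dotted lines mark 2-fold. Trpm8 at -1.11 and Mcoln2 at 1.26 are the points past 2-fold.

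Among genes that act with these channels some were lower in ipsilateral DRG. Of 22 measured partners and sensitising receptors 16 had a log2 ratio below 0, where 43.9% of all measured features did, and 5 were at -0.5 or less, where 6.89% were. The median was -0.37, with 2 at least 2-fold lower, against 0.784% of measured features, and 0 past 2-fold higher, against 3.04%. The authors' deposited table calls 3 of the 22 lower, against 1.9% of tested features, and 1 higher, against 4.64%. Akap5, a scaffold that holds kinases at TRPV1, was at 1.68 FPKM ipsilaterally and 10.1 FPKM contralaterally (log2 ratio -2.05). The prostaglandin receptor gene Ptger1 was at 5.20 against 10.8 FPKM (-0.93). The higher gene called in the authors' deposited table was Src, a kinase that phosphorylates TRPV1, at 14.9 against 10.2 FPKM (0.50). Pirt, a membrane protein that binds TRPV1 and TRPM8, was at 260.4 against 366 FPKM (-0.49), and Tmem100, which links TRPA1 to TRPV1, at 17.1 against 28.2 FPKM (-0.69).

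In cord the same list had 19 measured genes with a median log2 ratio of -0.14. Past 2-fold was 1 in each direction, where 4.46% of measured features were 2-fold higher and 1.64% lower. Akap5 was at 18.2 FPKM ipsilaterally and 59.2 FPKM contralaterally (-1.65), and the prostaglandin receptor gene Ptger4 at 0.753 against 2.50 FPKM (-1.0, just short of 2-fold). The authors' deposited table calls both lower, as it does 1.55% of tested features. Ptger1, at 3.05 against 0.888 FPKM (1.1), is not called in the authors' deposited table. The calcineurin subunit gene Ppp3ca was at 365 against 605 FPKM (-0.73).

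Enzymes that make or remove channel agonists had a median log2 ratio of 0.22 over 8 genes in DRG and -0.20 over 6 in cord. In DRG 0 were past 2-fold, where 3.04% of measured features were 2-fold higher and 0.784% lower. In cord 0 were, against 4.46% and 1.64%. The authors' deposited tables call 0 of these genes, against 4.64% of tested features higher and 1.9% lower in DRG. The shares called in cord were 4.52% and 1.55%. Cd38, which makes the TRPM2 agonist ADP-ribose, was at 2.55 FPKM in ipsilateral DRG and 1.09 FPKM in contralateral DRG (0.76), and at 6.17 against 9.19 FPKM in cord (-0.51). Parp1, another source of ADP-ribose, was at 25.7 against 16.3 FPKM in cord (0.63), and Faah, which breaks down anandamide, at 5.67 against 8.90 FPKM (-0.57).

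Other transduction channels of sensory neurons had a median log2 ratio of -0.21 over 13 measured genes in DRG. Of the 13, 8 were below 0, where 43.9% of all measured features were. Past 2-fold were 0, where 3.04% of measured features were 2-fold higher and 0.784% lower. Accn2, the acid-sensing channel ASIC1, was at 14.4 against 25.6 FPKM (-0.79). It is the 1 gene of this list called in the authors' deposited table, which calls 1.9% of tested features lower and 4.64% higher. Kcnk18, the potassium channel TRESK, was at 2.71 against 5.07 FPKM (-0.71), and Accn1 (ASIC2) at 17.8 against 25.4 FPKM (-0.49). P2rx3, the ATP-gated channel of nociceptors, was higher ipsilaterally at 231 against 134 FPKM (0.78), not called in the authors' deposited table (q = 0.0568). In cord 11 genes of the list had a median of -0.04, with 0 called, where 4.52% of tested features were called higher and 1.55% lower.

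**Figure D5:**
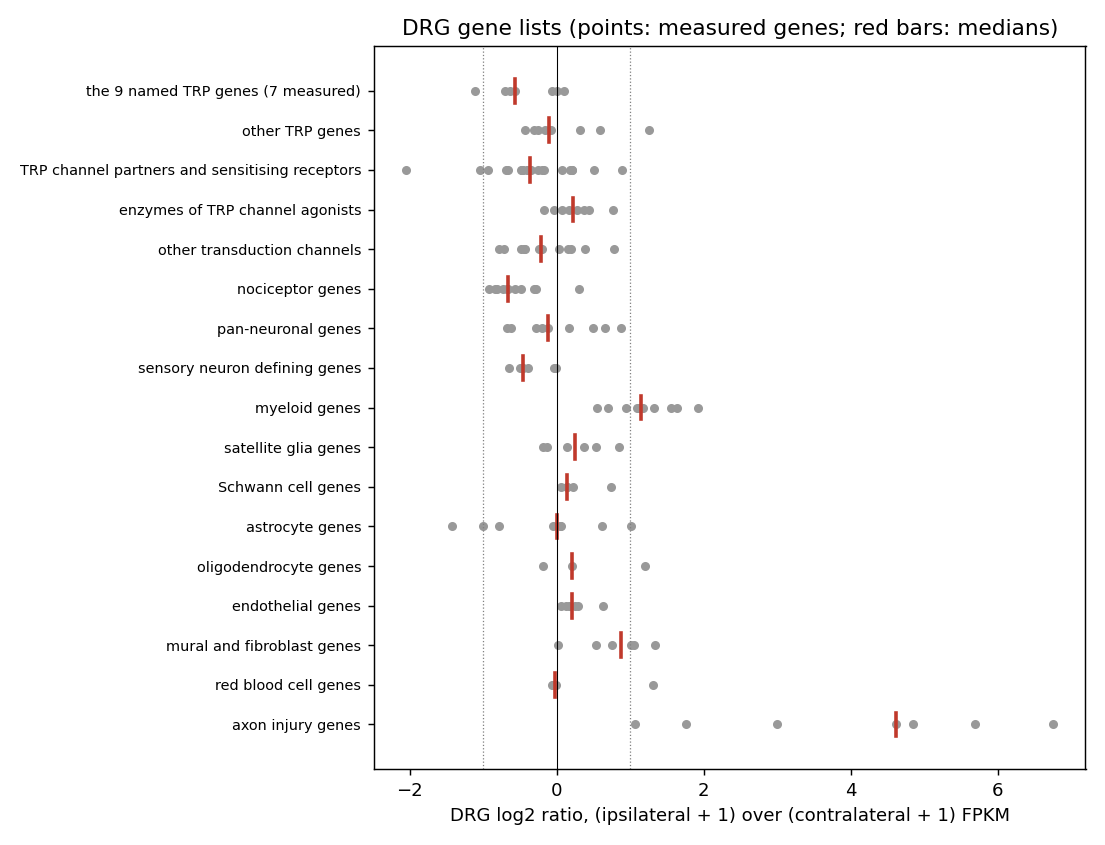
DRG log2 ratio, (ipsilateral + 1) over (contralateral + 1) FPKM, of the measured genes (grey points) of each list with at least 3 of them, with the list's median as a red bar; dotted lines mark 2-fold. The 7 measured TRP genes have a median of -0.57, between the sensory neuron defining genes at -0.46 and the nociceptor genes at -0.66.

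Of 11 nociceptor genes 10 had a log2 ratio below 0 in DRG, against 43.9% of all measured features. At -0.5 or less were 7 of them, against 6.89% of measured features. Their median was -0.66, and 0 were past 2-fold, where 0.784% of measured features were 2-fold lower and 3.04% higher. The authors' deposited table calls 3 of the 11 lower, against 1.9% of tested features. Prdm12, a transcription factor gene of nociceptors, was at 50.5 FPKM ipsilaterally and 96.8 FPKM contralaterally (-0.93), the sodium channel gene Scn10a at 87.8 against 158 FPKM (-0.84), Tac1, the substance P gene, at 73.8 against 131 FPKM (-0.82) and Scn11a at 62.9 against 105 FPKM (-0.73). All 8 measured sensory neuron defining genes were below 0, with a median of -0.46, and their summed level was 519 against 612 FPKM. Among them Pvalb, a gene of proprioceptors, was at 65.0 against 102 FPKM (-0.64). The 9 pan-neuronal genes had a median of -0.11, with 5 below 0, and with Rbfox3 at 46.5 against 74.7 FPKM (-0.67) and Stmn2, which growing axons use, at 1516 against 828 FPKM (0.87). Taken relative to the median of the sensory neuron defining genes, Trpm8 stood at -0.65, Trpv1 at -0.24, Trpa1 at -0.17 and Trpm2 at -0.10. Trpv2 then stood at 0.56, Trpm7 at 0.47 and Trpm3 at 0.40, since -0.46 was subtracted from every gene. Relative to the pan-neuronal genes Trpm8 stood at -1.0.

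Non-neuronal lists in DRG went in both directions. The 6 satellite glia genes had a median log2 ratio of 0.25, led by Glul at 323 against 179 FPKM (0.85), and the 5 Schwann cell genes a median of 0.14. The 6 mural and fibroblast genes had a median of 0.88, with a summed level of 586 against 293 FPKM. Endothelial genes had a median of 0.21 over 6 genes, oligodendrocyte genes 0.21 over the 3 measured (Mag, Cldn11 and Cnp, which Schwann cells also express) and red blood cell genes -0.02 over 5. The 2 measured choroid and ependymal genes had a median of -0.31, with Foxj1 at 1.83 against 4.53 FPKM and called lower in the authors' deposited table. Atf3 stood at 389 against 12.6 FPKM, and all 7 axon injury genes were at least 2-fold higher, against 3.04% of measured features. The part of these lists in the TRP values was not tested.

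In cord the nociceptor genes that were measured (5 of 11) had a median log2 ratio of 0.55, with Calca at 2.91 against 0.565 FPKM and Prph at 8.0 against 3.14 FPKM, neither called in the authors' deposited table. Pan-neuronal genes had a median of -0.09 over 9, sensory neuron defining genes 0.06 over 5 and dorsal horn neuron genes -0.25 over 8. The dorsal horn genes ran from -0.99 for Gad1 to 1.73 for Lbx1, both called in the authors' deposited table. The median was 0.06 for 6 satellite glia genes, 0.24 for 2 Schwann cell genes, 0.07 for 6 oligodendrocyte genes and 0.04 for 6 endothelial genes. It was 0.75 for 5 mural and fibroblast genes, 0.58 for 3 choroid and ependymal genes and -0.53 for 3 red blood cell genes. The 7 axon injury genes had a median of 1.62.

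For the 3 TRP genes with the highest mean level over the 4 libraries, the features with the nearest pattern were found by the Euclidean distance of the log2 values over the 4 libraries, centred on each feature's mean, among 14258 features measured in either tissue. For Trpm7 the nearest features were Abcd3, Cntn2 and Srprb, at distances of 0.018 to 0.025, and 86 features lay within 0.1. For Trpm3 they were Efcab2, Myh7 and Cdh24, at 0.049 to 0.070, with 9 features within 0.1. Efcab2 was at 8.92 against 9.61 FPKM in DRG and 25.8 against 25.3 FPKM in cord. Myh7 was far lower, at 0.0167 against 0.0606 FPKM in DRG and 1.69 against 1.63 FPKM in cord. Cdh24 was at 0.116 against 0.151 FPKM and 2.23 against 1.99 FPKM. The likeness of Myh7 and Cdh24 to Trpm3 is thus not one of plain folds between tissues. For Trpv1 the nearest was Fstl1 at 0.12, at 575 FPKM in ipsilateral DRG and 856 FPKM in contralateral DRG, and at 28.0 against 26.4 FPKM in cord. Tmem79 (0.29) and Osbpl3 (0.31) followed, and 0 features lay within 0.1 of Trpv1.

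Overlapping genes touched 2 of the 9. The locus that the authors' deposited table gives for Trpm3 is shared with Mir204, a microRNA gene listed at 0 in all 4 libraries. The locus of Trpc5 is shared with Gm15070 and Mageb16-ps1, both listed at 0 in DRG and ipsilateral cord, and at 0.144 and 0.0990 FPKM in contralateral cord. How reads from shared loci were assigned was not stated in the labels.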

How the data were processed

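Total RNA from 4 samples (ipsilateral and contralateral DRG and dorsal cord, 1 library each) was made into Epicentre ScriptSeq libraries, per the labels' protocols. The submitters' processing notes name TopHat 1.4.0, Cuffdiff 1.3.0 and the build mm9. The annotation, filters and strand setting are not given in the sources used here. Per the file headers, the deposited tables, 1 per tissue, hold FPKM per library, with the log2 fold change, test statistic, p-values and q-values of the authors' comparison of 1 library with 1 library. Columns were matched to groups by the sample names within each table (0 columns left out).

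Log2 ratios with a pseudocount of 1 FPKM were computed with Python 3.11.15, numpy 2.4.6, pandas 2.3.3 and scipy 1.17.1, and figures drawn with matplotlib 3.10.9. The standard error of a plain log2 fold is the deposited fold change divided by the deposited statistic. A two-sided normal test with it gives back the deposited p-values to within 0.001 for 100% of features above 0 in both libraries. The fold change cancels in this step, so it shows only that the deposited p-values follow from the deposited statistic. It is no independent check of the standard errors or the intervals. No test of conditions was made. The ratio and interval formulas were tested on simulated data, with noise drawn from the same implied standard errors. This checks the code and not the size of the intervals.

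The 9 genes and the 18 other lists were chosen with earlier results of these data known. The rule for named genes was the 9 genes, other TRP genes at 1 FPKM, up to 4 measured members of a list per tissue with the largest absolute log2 ratio, 3 nearest features for each of 3 genes, and overlapping features. Some genes that the rule names are not reported here. Src, Pirt and Tmem100 fall outside it and were picked with their values in view. Lists of several cell types share expression with DRG and cord neurons or glia. Promoter windows come from RefSeq, and the motifs were chosen after the values were seen.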

Additional observations from a re-analysis of the deposited data

Results flagged for a closer look

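All 4 genes measured in both tissues had side differences of opposite sign in DRG and cord, which is what marks them here, and with 1 library per group the differences between tissues were not tested. On the plain log2 scale, DRG minus cord, the difference was -0.75 for Trpm2, 0.22 for Trpm7, 0.16 for Trpv2 and -0.10 for Trpm3. For each of the 4 genes the side difference was smaller than its own implied standard error in at least 1 tissue (for Trpm2, in cord), and each of the 4 intervals holds 0.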

How the results depend on the processing

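Pseudocounts of 0.1 and 3 FPKM, filters of none and 5 FPKM, median and upper quartile rescaling, and rows with test status OK gave 82 values for single genes, all within the implied standard error of the value reported. The Trpm8 log2 ratio in DRG ran from -1.17 to -1.0 and that of Trpv1 from -0.75 to -0.65 under them. Of these settings the filters and the status rule cannot change a single gene's ratio. The rescalings shift all genes of a tissue nearly alike. In DRG median rescaling removed 0.055 and the upper quartile shift was -0.037, where the lowest implied standard error of a measured gene was 0.157. The 82 values therefore say little beyond the effect of the pseudocounts. The median of the DRG genes, -0.57, is the value of Trpm2, the measured gene with the lowest level. The median moved to -0.16 without a filter, where 9 genes counted, and was -0.35 with a filter of 5 FPKM, where 6 counted. With pseudocounts of 0.1 and 3 FPKM it was -0.68 and -0.40, and with median and upper quartile rescaling -0.61 and -0.59. In DRG 4 genes were lower at a log2 ratio of 0.5 in place of the 1 at 2-fold. Chosen after seeing the data, ratios relative to the sensory neuron defining genes gave 0 genes 2-fold lower and a median of -0.10 in DRG, by the construction of subtracting -0.46. Of 14 single-gene values relative to the sensory neuron defining or the pan-neuronal genes, 7 moved by more than the implied standard error. This too was by construction, since the DRG standard errors ran from 0.157 to 0.294. The -0.46 subtracted for the first list exceeds all of them in size, and the -0.11 for the second exceeds none. Of 60 alternative counts and medians 56 stayed within 1.5 times the count, or within the genes' median standard error of the median. Every alternative in cord left the counts at 0. No paired analysis was possible because each group has 1 library. Depth is unknown, and levels under 1 FPKM (Trpv4 in both tissues, Trpc5 in DRG, Trpa1 and Trpm8 in cord) allow no direction to be given.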
